A study of Homo sapiens with 8 samples.

Results

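Respiratory complexes II to V are the part of the mitochondrial respiratory chain that follows complex I, together with the ATP synthase that the chain drives. The genes described here are those whose symbols begin with SDHAF, UQCR, UQCC, COX and a digit, ATP5 or ATPAF, together with SDHA to SDHD, CYC1, CYCS, SURF1 and the SCO genes. The rule found 65 of the 8801 gene IDs in the authors' deposited tables, and it used no measured value. Complex II had 8 of these genes, complex III had 15, complex IV had 21 and complex V had 20, and CYCS encodes the carrier cytochrome c. By role, 40 encode subunits, 22 encode assembly factors, and COX7A2L, ATP5IF1 and CYCS encode a supercomplex factor, an inhibitor and a carrier. Only nuclear genes matched the symbol rule, and SCO2, COX16, COX7A1, COX4I2 and COX6A2 were not among the 65.

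The cells were HEK293T, a human embryonic kidney line, either wild-type (WT) or Pcif1-KO. PCIF1 writes m6Am, a methyl mark on an adenosine that is the first transcribed base of an mRNA. Each genotype was transfected with 5 pmol of scrambled siRNA (siScram) or of siRNA targeting PCF11 (siPCF11), which codes for part of the machinery that cleaves and polyadenylates mRNA, and nuclear RNA was taken 48 h later, with s4U as the label of newly made RNA. The 4 groups WT with siScram, Pcif1-KO with siScram, WT with siPCF11 and Pcif1-KO with siPCF11 had 1 library each. Per the labels, 4 further libraries came from the knockout with PCIF1-WT, PCIF1-CD or EGFP overexpressed, and these were not analysed here.

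Every value is a log2 ratio of WT over Pcif1-KO within 1 siRNA, so a negative ratio is lower in WT and higher in Pcif1-KO. A ratio compares the genotypes and not the siRNAs. Ratios with siScram were listed for 7893 genes, with siPCF11 for 8499 and with both for 7591. Of the genes of complexes II to V, 64 had a ratio with siScram, 63 with siPCF11 and 62 with both, since SDHAF4 was listed with siPCF11 alone and SURF1 and UQCC2 with siScram alone. The read depth behind a ratio is unknown, the labels do not say how many Pcif1-KO clones were used, and the libraries read mRNA from its 3′ end, where fewer cleavage events at one site and less RNA cannot be told apart. In these bulk libraries fewer cells in one state and less RNA per cell cannot be told apart either. The level of PCIF1 was not analysed here, which leaves the knockout unchecked. In the authors' deposited tables PCF11 was lower in WT, at -0.44 and -0.45 with siScram and siPCF11, which says nothing of how far siPCF11 lowered it. None of 10 marker genes of other lineages was listed.

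Complex II oxidises succinate and passes the electrons to ubiquinone, complex III passes them from ubiquinone to cytochrome c, and complex IV passes them from cytochrome c to oxygen. Complexes III and IV pump protons across the inner mitochondrial membrane, and complex V, the ATP synthase, lets them flow back while it makes ATP. Complex II is coded wholly in the nucleus, whereas the other 3 also hold subunits coded in mitochondrial DNA. Nuclear genes of the chain are known as housekeeping genes with short mRNAs, and the factors GABP, NRF1 and YY1 are known to bind many of their promoters.

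The genes of complexes II to V were mostly in the m6Am class that the authors' deposited tables assign, with 52 of 65 (80.0%) against 48.8% of all listed genes. They were also mostly in the short class of those tables, with 46 of 65 (70.8%) against 40.0% of all listed genes, and their median gene span in RefSeq was 10.5 kb against 30.1 kb. m6Am can form only where transcription starts with A, so the bases around the RefSeq start of a few genes are shown here to set the assigned class beside the sequence. RefSeq (GRCh38.p14) held a promoter entry for 55 of the 65 genes. Each line runs from 15 bases before the start to the 15th base of the transcript, and the capital marks the first transcribed base. The first 7 genes are m6Am genes with A at this start.
COX6A1 (chr12:120438098-120438127, plus strand): ttccggcgctgcggcAgtccagatcaaaaa
COX5B (chr2:97646047-97646076, plus strand): cagcttgttcccggaAgttttgctgctagt
COX7A2 (chr6:75250284-75250313, minus strand): ttattccattgtcttAacactgactgactt
COX17 (chr3:119677392-119677421, minus strand): cttcctgtactttttAgagcgactgccgga
UQCC5 (chr3:52536590-52536619, plus strand): gcgcccagttccggcActcgtgcgcctacc
UQCR11 (chr19:1605448-1605477, minus strand): cggccgcgcctgcgcAgtgtagccgggtca
CYCS (chr7:25125246-25125275, minus strand): cgtgtccttggacttAgagagtggggacgt

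The next 4 are m6Am genes whose RefSeq start has another base, and among them are UQCRC1 and ATP5MG, which had the lowest ratios with siScram and with siPCF11.
UQCRC1 (chr3:48609632-48609661, minus strand): ctacgcttgcgcggcGcaacagggccgact
ATP5MG (chr11:118401591-118401620, plus strand): ggtcctgcagcgggtCcttccggcgggtga
COX7B (chrX:77899453-77899482, plus strand): gctgaaagccattttGtttttcagctcact
ATP5F1C (chr10:7788162-7788191, plus strand): cgcgctgaggcctgcCtgaccgaccttcag

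The last 4 belong to the non-m6Am class.
UQCRC2 (chr16:21953346-21953375, plus strand): tgggaaactcccggcCtccgccaccatctt
COX4I1 (chr16:85799680-85799709, plus strand): cggcgcggccttgctCtcttccggtcgcgg
ATP5MC2 (chr12:53676069-53676098, minus strand): cttcccgctgctccgCccctctctgtcttc
COX15 (chr10:99732113-99732142, minus strand): gcccgacccggaagtGcttctcttttcctt

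The first base was A in 19 of the 43 m6Am genes of complexes II to V with an entry (44.2%) and in 0 of the 12 non-m6Am genes, of which 6 started with G and 6 with C. Among all listed genes, A was first in 49.6% of m6Am genes and in 39.8% of non-m6Am genes, so the RefSeq start separates the assigned classes only in part. A gene can use several starts, and at any annotated start A was found in 20 of the 43 and 1 of the 12. The median ratio of the 19 genes with A was -0.30 with siScram and -0.07 with siPCF11, that of the 17 genes with C was -0.22 and -0.18, and that of the 19 genes with G was -0.13 and -0.11, so the 3 bases differed in order between the siRNAs.

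Motifs of the known regulators were searched on both strands from 250 bases before to 50 bases after the RefSeq start. The ETS core bound by GABP, CCGGAAG, was found in 22 of 55 genes of complexes II to V (40.0%), against 10.7% of all promoters in the table and 22.1% of the listed genes. Of the genes with an entry, it was found in 4 of 7 in complex II, 3 of 12 in complex III, 10 of 19 in complex IV and 5 of 16 in complex V. The NRF1 core, GCGCANGCG, was found in 20 of 55 (36.4%), against 8.05% of all promoters and 17.1% of the listed genes. By complex, in the same order, it was found in 4 of 7, 7 of 12, 3 of 19 and 6 of 16. The YY1 core, AAGATGGC, was found in 8 of 55 (14.5%), against 3.03% and 6.54%. At least 1 of these motifs was found in 37 of the 55 genes, against 19.2% of all promoters and 39.2% of the listed genes, and 7 genes held both the ETS and the NRF1 core. The 250 bases before the start are shown for a pair of genes that are lower in WT and carry such a motif there, with the motifs in capitals, an NRF1 core and then an ETS core for COX6A1 and 2 NRF1 cores for UQCRC1.
COX6A1 (chr12:120437863-120438112, plus strand): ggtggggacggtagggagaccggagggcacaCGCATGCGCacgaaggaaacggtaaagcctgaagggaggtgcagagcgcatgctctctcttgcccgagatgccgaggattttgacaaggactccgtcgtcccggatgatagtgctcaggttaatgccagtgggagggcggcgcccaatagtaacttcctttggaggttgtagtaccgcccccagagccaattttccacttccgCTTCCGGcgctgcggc
UQCRC1 (chr3:48609647-48609896, minus strand): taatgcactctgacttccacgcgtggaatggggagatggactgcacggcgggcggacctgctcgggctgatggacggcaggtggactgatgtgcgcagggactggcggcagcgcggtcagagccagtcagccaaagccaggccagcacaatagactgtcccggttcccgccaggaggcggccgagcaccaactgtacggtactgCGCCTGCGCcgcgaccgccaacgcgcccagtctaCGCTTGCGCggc

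UQCRC1 also held a YY1 core 24 to 31 bases into the transcript, and ATP5MG held an ETS core at transcript bases 2 to 8, which is part of its start window above. The 22 genes with an ETS core had a median ratio of -0.31 with siScram and, over the 21 listed, of -0.13 with siPCF11, and the 32 genes with an entry but no ETS core had medians of -0.16 and -0.10. For the NRF1 core the median was -0.28 with siScram and -0.11 with siPCF11, against -0.16 and -0.13 without it. For the YY1 core the medians were higher than without it with both siRNAs, at -0.10 over 8 genes and 0.08 over 7, against -0.20 and -0.13. None of these differences was tested. In the 3 genes just named no 2 matches overlapped. A motif here is a match of letters and shows no binding.

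Most genes of complexes II to V were lower in WT with each siRNA. With siScram, 48 of 64 ratios were below 0 (75%), against 51.1% of all listed genes, and the median was -0.20 against -0.0096 over all genes. With siPCF11, 44 of 63 were below 0 (69.8%), against 51.1% of all genes, and the median was -0.19 against -0.010. With both siRNAs, 37 of 62 were below 0 (59.7%), against 31.5% of all genes with both ratios. Only 8 of 62 were above 0 with both (12.9%), against 30.2%, and 17 had opposite signs (27.4%), against 38.3%. With 1 library per group these shares describe the libraries, and no test was made within 1 siRNA.

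The size of the ratios was modest for most of them. A ratio of 0.5 in size, which is a 1.41-fold difference, was used as the line for single genes. At or below -0.5 with siScram were 8 of 64 genes (12.5%), namely UQCRC1, UQCRC2, UQCC3, COX4I1, COX5B, COX6A1, ATP5F1D and ATP5MG, against 6.98% of all genes. At or above 0.5 with siScram was SDHB alone (1.56%), against 6.11%. At or below -0.5 with siPCF11 were 12 of 63 (19%), namely SDHA, UQCC3, UQCC5, CYCS, COX6A1, COX6C, COX7A2, COX7B, COX11, COX17, ATP5F1C and ATP5MG, against 8.7%. At or above 0.5 with siPCF11 was UQCC1 alone (1.59%), against 8.81%. ATP5MG, COX6A1 and UQCC3 were at or below -0.5 with both (4.84% of 62, against 2.25% of all genes), and 0 genes were at or above 0.5 with both, against 2.13%.

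**Figure D1:**
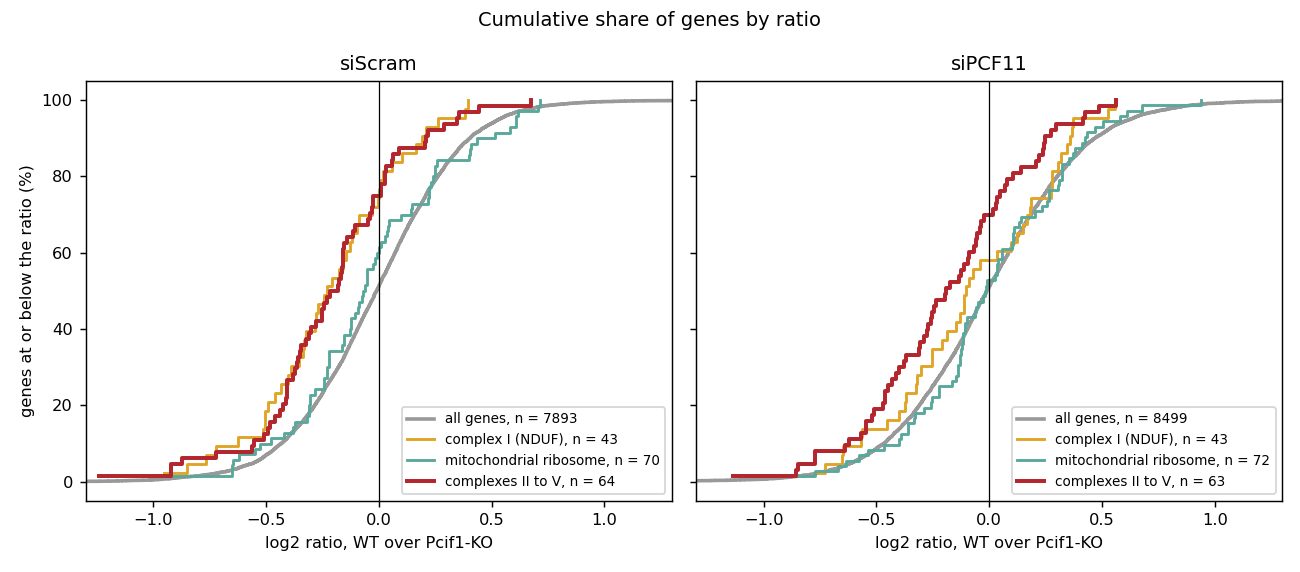
The share of genes at or below each log2 ratio of WT over Pcif1-KO is drawn for siScram (left) and siPCF11 (right). The line of complexes II to V crosses 0 at 75% with siScram and at 69.8% with siPCF11, against 51.1% for all genes. Complex I (genes with symbols starting NDUF) and the mitochondrial ribosome are drawn beside them.

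Complex I, the other large complex of the chain, had 32 of 43 ratios below 0 with siScram, at a median of -0.23, and 25 of 43 with siPCF11, at a median of -0.10. The proteins of the mitochondrial ribosome, which make the mitochondrially coded subunits, had 43 of 70 below 0 with siScram at a median of -0.07, and 38 of 72 with siPCF11 at a median of -0.02. In the plot of cumulative shares complex I runs close to complexes II to V with siScram, and the mitochondrial ribosome runs closer to all genes. These differences between gene groups were not tested.

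Over both siRNAs together, 5 genes of complexes II to V passed the test as lower in WT and none as higher. limma was fitted to the 2 ratios of each of the 7591 genes, with a two-sided test of a mean of 0 and Benjamini-Hochberg adjustment over all of them at 0.05. The 5 were 8.06% of 62, against 2.82% of all genes (214), and the 0 higher stand against 2.67% (203). At an unadjusted p under 0.05, 14 of the 62 were lower in WT (22.6%, against 8.91% of all genes) and 2 were higher (3.23%, against 8.79%). The fit gave 1 SD of 0.28 to every gene, so each mean of 2 ratios has an SE of 0.20.

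ATP5MG, subunit g in the membrane part of ATP synthase (chromosome 11, 118401606 to 118409847), was listed in the authors' deposited tables at -0.72 with siScram and -1.14 with siPCF11. Its mean ratio was -0.93 (SE 0.20, 95% interval -1.32 to -0.54), which is 1.90-fold higher in Pcif1-KO, with a limma adjusted p of 0.000298. It was lower in WT in both library pairs, and its adjusted p was the smallest among these genes. UQCRC1, a core subunit of complex III (chromosome 3, 48599002 to 48609646), was listed in the authors' deposited tables at -1.24 with siScram and -0.20 with siPCF11. Its mean was -0.72 (SE 0.20, limma adjusted p 0.0104), and nearly all of it came from siScram. Without the spread shared by all genes the SE was 0.52 for UQCRC1 and 0.21 for ATP5MG. COX6A1, a subunit of complex IV (chromosome 12, 120438113 to 120440730), was at -0.92 and -0.51 per the authors' deposited tables and had a mean of -0.71 (SE 0.20, limma adjusted p 0.0109).

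ATP5F1D, the delta subunit in the central stalk of ATP synthase (chromosome 19, 1241751 to 1244825), was at -0.87 with siScram and -0.40 with siPCF11 per the authors' deposited tables. Its mean was -0.64 (SE 0.20, limma adjusted p 0.0323). COX7B, a small subunit of complex IV (chromosome X, 77899468 to 77907376), was at -0.36 and -0.85 in those tables and had a mean of -0.61 (SE 0.20, limma adjusted p 0.0443). The 5 genes belong to 3 complexes and were 1.53-fold to 1.90-fold higher in Pcif1-KO. Next came ATP5F1C, the gamma subunit of the central stalk, with a mean of -0.58 and a limma adjusted p of 0.0579, and UQCC3 with a mean of -0.54 and 0.0942. On the other side, SDHB had a mean of 0.47 (limma adjusted p 0.16) and COX14 of 0.42 (0.23).

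The 5 calls were lost under each of 2 alternatives. Without the shared spread 0 of the 5 passed, at adjusted p between 0.694 and 0.764, as did 0 of all 7591 genes, with 4 of the 62 lower and 1 higher at an unadjusted p under 0.05. With the median of the neighbouring genes within 10 Mb taken from each ratio 0 of 62 passed in either direction, at adjusted p between 0.0639 and 0.184 for the 5, with 15 lower and 1 higher at an unadjusted p under 0.05. In that fit the means of UQCRC1 and ATP5F1D were little moved, at -0.72 and -0.65 and those of ATP5MG, COX6A1 and COX7B became -0.65, -0.50 and -0.52.

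**Figure D2:**
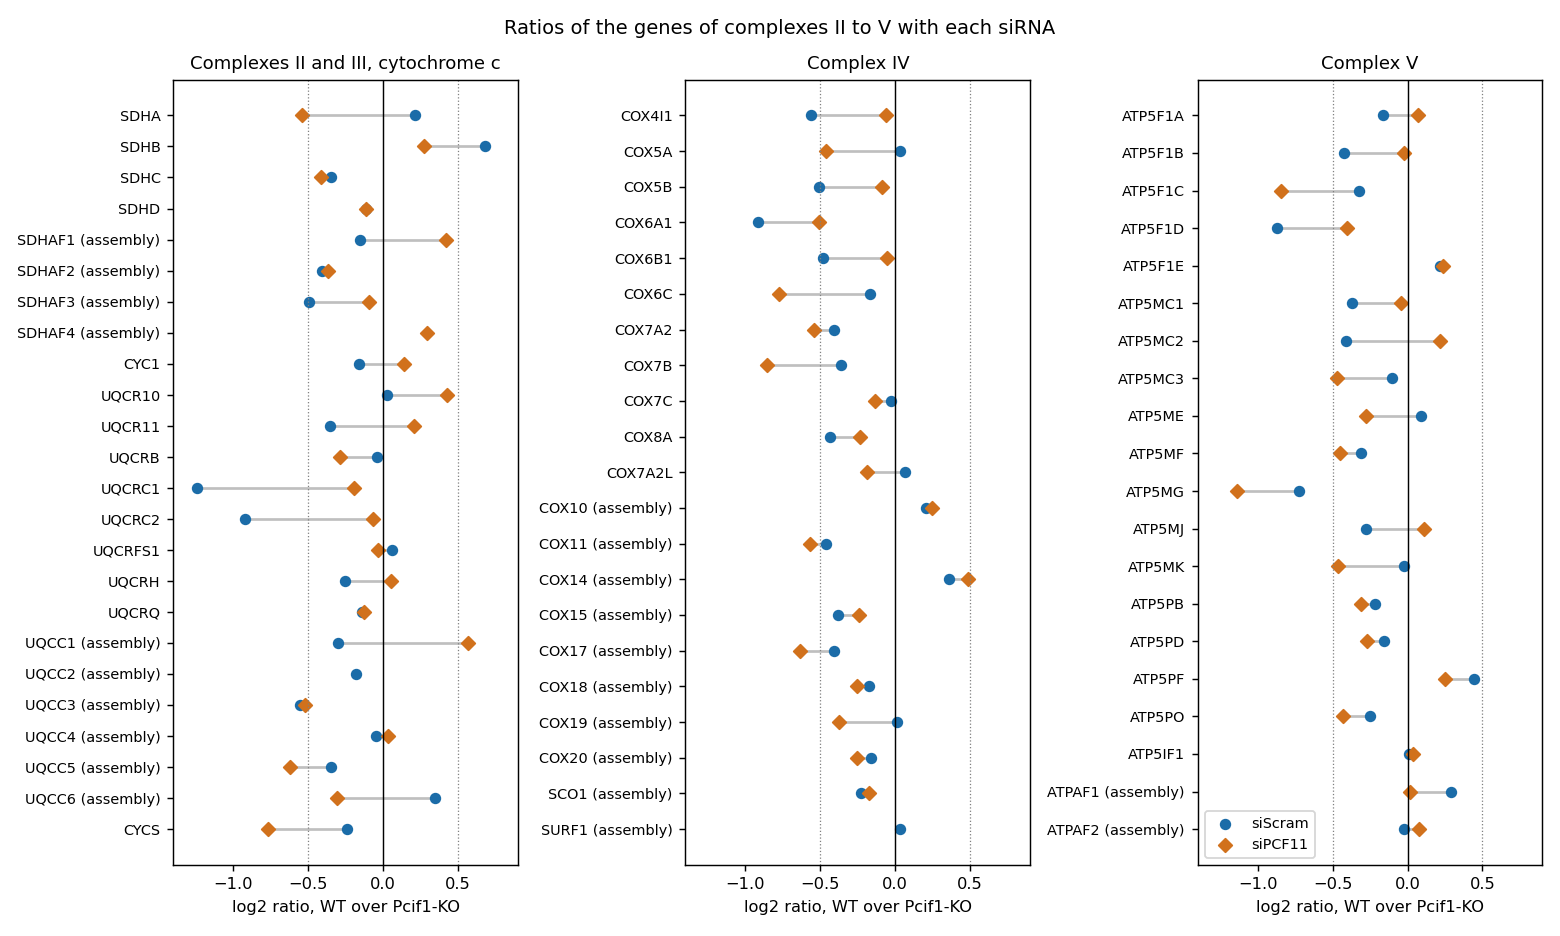
Both log2 ratios of WT over Pcif1-KO are drawn for each of the 65 genes, grouped by complex, with siScram as circles and siPCF11 as diamonds. The dotted lines are at -0.5 and 0.5. All 10 subunits of complex IV have a siPCF11 ratio below 0, whereas UQCRC1 and UQCRC2 of complex III stand far below 0 with siScram only.

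Complex II held genes of both signs. Its median was -0.15 with siScram, with 5 of 7 genes below 0, and -0.10 with siPCF11, with 5 of 8 below 0. The 4 subunits had a median of 0.05 with siScram and -0.26 with siPCF11, and the assembly factors had one of -0.41 and 0.10, so subunits and assembly factors were ordered in opposite ways with the 2 siRNAs. SDHA, the flavoprotein that oxidises succinate, was listed in the authors' deposited tables at 0.21 with siScram and -0.54 with siPCF11. SDHB, the iron-sulfur subunit that takes the electrons on, was at 0.68 and 0.27 per the authors' deposited tables and had the highest ratio of all 64 genes with siScram. SDHC, a membrane anchor at the ubiquinone site, was at -0.35 and -0.41 there. SDHD, the other anchor, was at -0.12 and -0.11 per the authors' deposited tables. The catalytic pair thus had a siScram ratio above 0 and the anchor pair had ratios below 0 with both siRNAs.

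Among the assembly factors of complex II, SDHAF2, which helps to attach FAD to SDHA, was at -0.41 and -0.37 per the authors' deposited tables. SDHAF1, which helps to mature the iron-sulfur subunit, was at -0.15 and 0.42 in them. SDHAF3, which acts in the same step, was the lowest of complex II with siScram in the authors' deposited tables at -0.49, and was at -0.10 with siPCF11. SDHAF4, which binds SDHA before it joins SDHB, was listed in them with siPCF11 alone at 0.29. None of the 7 genes of complex II with both ratios passed the test.

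In complex III the lowest ratios with siScram were those of a pair of core subunits, and the lowest with siPCF11 were those of the assembly factors UQCC5 and UQCC3. Its median was -0.18 with siScram, with 12 of 15 genes below 0, and -0.05 with siPCF11, with 8 of 14 below 0. UQCRC2, which sits beside UQCRC1 as the other large core protein (chromosome 16, 21953361 to 21983660), was at -0.92 with siScram and -0.07 with siPCF11 per the authors' deposited tables. UQCRC1 and UQCRC2 were therefore the pair that stood out with siScram, and both were near the middle of the complex with siPCF11. The electron-carrying subunits were closer to 0. CYC1, cytochrome c1, was at -0.16 and 0.14 per the authors' deposited tables, and UQCRFS1, the Rieske iron-sulfur protein, was at 0.06 and -0.04 in them.

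The 5 small accessory subunits of complex III spanned -0.36 to 0.03 with siScram and -0.29 to 0.43 with siPCF11. UQCR11 was at -0.36 and 0.21 per the authors' deposited tables and UQCR10 at 0.03 and 0.43, so both were higher with siPCF11. UQCRB was at -0.04 and -0.29, UQCRH at -0.25 and 0.05, and UQCRQ at -0.14 and -0.13, all from the authors' deposited tables. Over the 9 subunits the median was -0.16 with siScram and -0.04 with siPCF11.

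The assembly factors of complex III had a median of -0.24 over 6 genes with siScram and of -0.31 over 5 with siPCF11, lower than its subunits, and differed among themselves. UQCC1 and UQCC2 act with newly made cytochrome b, and UQCC3 acts just after them. UQCC1 was at -0.30 with siScram and 0.56 with siPCF11 per the authors' deposited tables, the highest siPCF11 ratio of all 63 genes. UQCC2 was listed in them with siScram alone, at -0.18. UQCC3 was at -0.55 and -0.52, the only gene of complex III at or below -0.5 with both. UQCC5, a small membrane protein, was at -0.35 and -0.62 per the authors' deposited tables, and UQCC6, known also as brawnin, was at 0.35 and -0.31 in them. UQCC4 was near 0 in those tables, at -0.05 and 0.03. CYCS, the cytochrome c that carries electrons from complex III to complex IV, was at -0.24 and -0.77 per the authors' deposited tables, with a mean of -0.51 and a limma adjusted p of 0.122.

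Complex IV was lower in WT in nearly all of its genes with siPCF11, and in nearly all of its subunits with both siRNAs. Its median was -0.23 with siScram, with 15 of 21 genes below 0, and -0.25 with siPCF11, with 18 of 20 below 0. Of the 10 subunits, 9 were below 0 with siScram at a median of -0.42, 10 were below 0 with siPCF11 at a median of -0.35, and 9 were below 0 with both. COX5A, at 0.03 with siScram and -0.46 with siPCF11 per the authors' deposited tables, was the exception. NDUFA4, now counted as a subunit of complex IV although its symbol is that of complex I, was at -0.33 and -0.40 per the authors' deposited tables, below 0 with both like the other 9.

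The subunits of complex IV were not all lower with the same siRNA, and these differences were not tested. Of the 10 subunits, COX4I1 alone had a siPCF11 ratio higher than its siScram ratio by 0.5 or more, against 10.9% of all genes. COX6C alone had one lower by 0.5 or more, against 9.91%. COX4I1, the widely expressed form of subunit 4, was at -0.56 with siScram and -0.06 with siPCF11 per the authors' deposited tables. COX5B, which binds zinc, was at -0.51 and -0.09 in them, and COX6B1, which faces the intermembrane space, was at -0.48 and -0.05. COX6A1, described above, and COX8A, at -0.44 and -0.24 per the authors' deposited tables, were also lower with siScram. COX6C, in contrast, was at -0.17 and -0.77 in those tables, and COX7B was at -0.36 and -0.85. COX7A2, the widely expressed form of subunit 7a, was at -0.41 and -0.55 per the authors' deposited tables, and COX7C was at -0.03 and -0.14 in them. COX7A2L, a relative of COX7A2 that helps to join complexes III and IV into supercomplexes, was at 0.06 and -0.19 in them.

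Of the factors that bring copper to complex IV, the 4 found by the symbol rule were mostly lower in WT. COX17, the copper chaperone of the intermembrane space, was at -0.41 and -0.64 per the authors' deposited tables (mean -0.52, limma adjusted p 0.106). COX11, which serves the copper site of COX1, was at -0.46 and -0.57 in them (mean -0.51, limma adjusted p 0.115). SCO1, which serves the copper site of COX2, was at -0.23 and -0.17 per the authors' deposited tables, and COX19 was at 0.01 and -0.38. All 4 were below 0 with siPCF11 and 3 of 4 with siScram, against 51.1% of all genes with each siRNA, and none passed the test. Outside the symbol rule, COA6 was at 0.39 with siScram and -0.14 with siPCF11 per the authors' deposited tables.

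The 2 enzymes that make heme A had opposite signs from each other. COX10, which makes heme O, was at 0.20 and 0.24 per the authors' deposited tables, and COX15, which turns heme O into heme A, was at -0.38 and -0.24 in them. COX14, a factor tied to the synthesis of COX1, was the highest gene of complex IV in the authors' deposited tables with both siRNAs, at 0.36 and 0.48. COX18 and COX20, which act on newly made COX2, were at -0.18 and -0.26, and at -0.16 and -0.25, in those tables. SURF1 was listed with siScram alone, at 0.03. The 10 assembly factors of complex IV had a median of -0.17 with siScram, and the 9 with a siPCF11 ratio had one of -0.25.

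Complex V held the gene with the lowest siPCF11 ratio, ATP5MG, and a wide spread around it. Its median was -0.19 with siScram, with 15 of 20 genes below 0, and -0.16 with siPCF11, with 12 of 20 below 0. The 17 subunits had medians of -0.25 and -0.27, with 14 and 12 of them below 0. In the catalytic head, ATP5F1A and ATP5F1B, the alpha and beta subunits that make ATP, were at -0.16 and 0.07, and at -0.42 and -0.02 per the authors' deposited tables. In the central stalk that turns inside the head, ATP5F1C was at -0.32 and -0.85 in them, ATP5F1D was at -0.87 and -0.40, and ATP5F1E, the epsilon subunit, was at 0.22 and 0.24. The 3 stalk subunits, which are found in equal number in the enzyme, thus spread over most of the range of complex V with siScram.

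The 3 genes ATP5MC1, ATP5MC2 and ATP5MC3 encode the same mature c subunit of the rotor ring behind different import sequences. ATP5MC1 was at -0.37 and -0.04 per the authors' deposited tables, ATP5MC2 at -0.41 and 0.22, and ATP5MC3 at -0.10 and -0.47. All 3 were below 0 with siScram, and with siPCF11 they parted. Their coding sequences are close to each other, but these libraries read mRNA from its 3′ end. How alike the 3′ ends of these genes are was not examined here. Whether reads are shared between them is therefore not known, and their separate ratios are uncertain to that extent.

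The stator, which keeps the head from turning, had ratios of both signs. ATP5PO, the subunit at its tip, was at -0.25 and -0.43 per the authors' deposited tables, ATP5PB at -0.22 and -0.31, and ATP5PD at -0.16 and -0.27. ATP5PF, known as coupling factor F6, was at 0.45 and 0.25 per the authors' deposited tables, the highest of complex V with both siRNAs. The small membrane subunits had a median of -0.28 with siScram and of -0.45 with siPCF11. Besides ATP5MG, ATP5MF was at -0.31 and -0.45 per the authors' deposited tables, ATP5MK at -0.03 and -0.46, ATP5ME at 0.09 and -0.27, and ATP5MJ at -0.28 and 0.11. All of these but ATP5MJ were below 0 with siPCF11. ATP5IF1, the inhibitor of ATP hydrolysis, was within 0.05 of 0 with both, at 0.009 and 0.04 in those tables. The assembly factors ATPAF1 and ATPAF2, chaperones of the beta and alpha subunits, were at 0.29 and 0.02, and at -0.03 and 0.08 per the authors' deposited tables.

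Subunits and assembly factors as wholes did not stand far apart in their medians. Over the 40 subunits the median was -0.25 with siScram and -0.17 with siPCF11, with 32 and 30 of them below 0. The assembly factors had medians of -0.18 and -0.21, with 15 of 21 and 12 of 20 below 0. At or below -0.5 with siScram were 17.5% of the subunits and 4.76% of the assembly factors, against 6.98% of all genes. With siPCF11 these shares were 17.5% and 20%, against 8.7%. Within single complexes the medians with siScram stood further apart, at -0.42 and -0.17 in complex IV and, in the other order, at 0.05 and -0.41 in complex II.

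The ratios of single genes differed between the siRNAs in both directions, at about the rate of all genes. The difference is the siPCF11 ratio minus the siScram ratio, and over the 62 genes its median was 0.0083 against 0.0072 over all genes. It was at or above 0.5 for 7 genes (11.3%), against 10.9% of all genes, and at or below -0.5 for 5 genes (8.06%), against 9.91%. The 7 were UQCRC1 with a difference of 1.05, UQCC1 with 0.87, UQCRC2 with 0.85, ATP5MC2 with 0.63, SDHAF1 with 0.57, UQCR11 with 0.56 and COX4I1 with 0.50. The 5 were SDHA with -0.76, UQCC6 with -0.66, COX6C with -0.60, CYCS with -0.53 and ATP5F1C with -0.53. Of the 7, 4 belong to complex III, which had 14 genes with both ratios, and of the 5, 1 belongs to it. Across the 62 genes the 2 ratios had a Pearson r of 0.35 and a Spearman rho of 0.32, against 0.43 and 0.36 across all 7591, and genes are not independent replicates. With 1 library per group the difference between the siRNAs could not be tested.

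**Figure D3:**
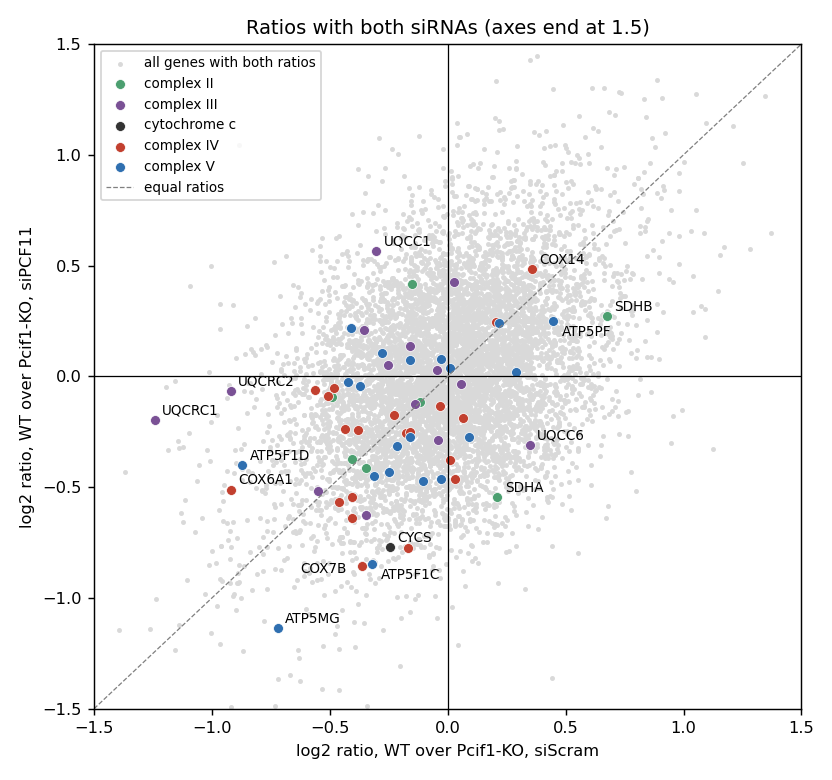
Each point is a gene, with its siPCF11 ratio plotted against its siScram ratio (both log2, WT over Pcif1-KO), for all genes with both ratios (grey) and for the 62 genes of complexes II to V, coloured by complex, with 29 genes beyond the axes. The area below 0 on both axes holds 37 of the 62 and the area above 0 on both holds 8.

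Gene position went along with some of the ratios. On chromosome 11 the median of all genes was -0.29 with siScram and -0.27 with siPCF11, and the 5 genes of complexes II to V there (ATP5MG, COX8A, SDHAF2, SDHD and UQCC3) were below 0 with both siRNAs. On chromosome 20, where the medians of all genes were 0.29 and 0.37, lie UQCC1 and ATP5F1E, and on chromosome 21, where they were 0.19 and 0.15, lie ATP5PF and ATP5PO. Not every gene went with its chromosome, since ATP5PO was at -0.25 and -0.43 per the authors' deposited tables, and UQCC1 was at -0.30 with siScram. COX7B lies on chromosome X, with a median of -0.12 with each siRNA. The part of the position in a ratio was not tested, but each ratio was also given relative to the median of the other listed genes in its window of 10 Mb.

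Relative to its neighbours, ATP5MG was at -0.45 with siScram and -0.85 with siPCF11, and UQCC3 was at -0.23 and -0.36. ATP5MG was so still among the low genes with siPCF11, whereas UQCC3 was no longer at or below -0.5 with either. The 5 genes of chromosome 11 had medians of -0.12 and -0.21 on this scale. COX6A1 was at -0.70 and -0.29, beside neighbours at -0.22 with each siRNA. UQCRC1 was little moved, at -1.19 and -0.24, as was UQCRC2, at -0.86 and -0.17. SDHB was at 0.41 and -0.13, and UQCC1 at -0.48 and 0.16, so neither was at or above 0.5 any more. Over all genes of complexes II to V the medians relative to the neighbours were -0.22 with each siRNA, with 49 of 64 and 49 of 63 below 0. By complex they were -0.09 and -0.06 for complex II, -0.17 and -0.15 for complex III, -0.27 and -0.29 for complex IV, and -0.22 and -0.26 for complex V. Before any centring the medians of the whole set were -0.20 for siScram and -0.19 for siPCF11. Taking off the median of the chromosome instead of the window gave -0.18 and -0.15. Window centring also left 0 of the 5 limma calls. How much of the lower ratios goes with gene position was not tested.

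**Figure D4:**
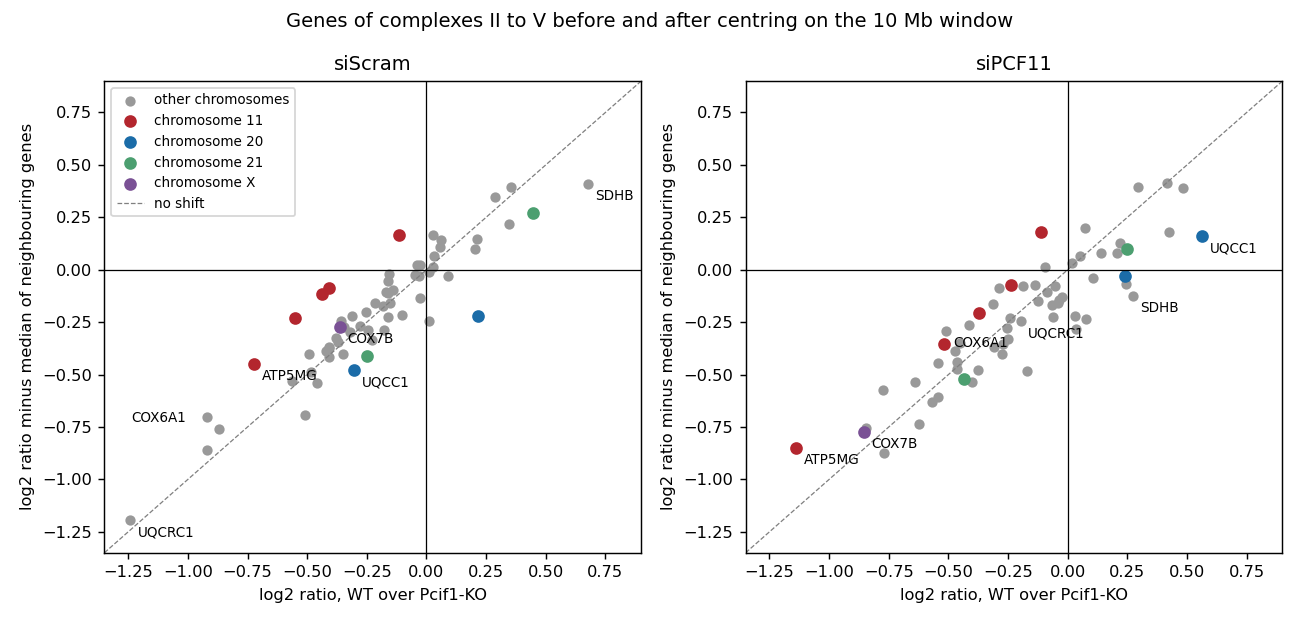
For each gene of complexes II to V, the log2 ratio minus the median of its neighbours within 10 Mb is plotted against the log2 ratio itself, for siScram (left) and siPCF11 (right), with chromosomes 11, 20, 21 and X in colour. Points above the dashed line were raised by the centring, as for the 5 genes of chromosome 11, and points under it were lowered, as for UQCC1.

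Genes of complexes II to V in both assigned m6Am classes had medians below 0 with each siRNA. The m6Am genes among them had a median of -0.20 with siScram and of -0.24 with siPCF11, with 39 of 52 and 37 of 51 below 0, against -0.002 and 0.028 for all m6Am genes. The non-m6Am genes had medians of -0.23 and -0.06, with 9 of 12 and 7 of 12 below 0, against -0.020 and -0.047 for all non-m6Am genes. With siPCF11 the 12 genes at or below -0.5 were all m6Am genes, so 12 of 51 stand beside 0 of 12 non-m6Am genes, and over all listed genes the counts were 340 of 4204 m6Am and 399 of 4295 non-m6Am genes. With siScram the order was the other way, at 6 of 52 m6Am genes (11.5%) and 2 of 12 non-m6Am genes (16.7%). Over all listed genes the siScram counts were 284 of 4103 m6Am and 267 of 3790 non-m6Am genes. By length, the short genes had medians of -0.20 and -0.25, against -0.027 and 0.022 for all short genes, and the long genes had medians of -0.20 and -0.10, against 0.003 and -0.030 for all long genes. Among genes that were both short and m6Am, 30 of 39 were below 0 with siScram and 29 of 38 with siPCF11, at medians of -0.22 and -0.26, against -0.026 and 0.039 for all listed genes of that kind. The few long non-m6Am genes had 3 of 6 below 0 with siPCF11, at a median of -0.02 against -0.06 for all listed genes of that kind. With siScram they had a median of -0.38 over 5 genes, against -0.009. None of the differences between classes was tested.

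Genes that act with these complexes but lie outside the symbol rule were taken from 3 lists. The first list held 29 further assembly and expression factors, among them NDUFA4, a complex IV subunit counted with complex I above by its symbol. Of these 29 genes 27 were listed, with 13 of 26 below 0 with siScram at a median of -0.005. With siPCF11, 16 of 27 were below 0 at a median of -0.14. The lowest and highest of them in the authors' deposited tables were LYRM7 at -0.39 and OXA1L at 0.66 with siScram, and LRPPRC at -0.60 and TACO1 at 0.83 with siPCF11. OXA1L inserts subunits into the inner membrane, and LRPPRC and TACO1 serve the expression of mitochondrially coded subunits. Of 14 regulators of respiratory gene expression, 13 were listed, with 5 of 12 below 0 at a median of 0.04 with siScram and 7 of 13 at a median of -0.06 with siPCF11. In the authors' deposited tables these ran from ESRRA at -0.30 to YY1 at 0.54 with siScram, and from GABPA, the DNA-binding subunit of GABP, at -0.61 to TFB2M at 0.68 with siPCF11. Of 19 genes for ubiquinone synthesis and other dehydrogenases that feed ubiquinone, 16 were listed, with 11 of 14 below 0 at a median of -0.12 with siScram and 9 of 15 at a median of -0.07 with siPCF11. These ran in the authors' deposited tables from DHODH at -0.53 to COQ10A at 0.25 with siScram, and from ETFA at -0.51 to ETFB at 0.65 with siPCF11. With siScram the medians of all 3 lists were nearer to 0 than that of the complexes, at -0.20. The share below 0 was nonetheless 78.6% for the ubiquinone list, against 75% for the complexes. With siPCF11 the medians of the lists were also nearer to 0 than that of the complexes, at -0.19. All 3 lists were then lower than complex III (-0.05), and the further assembly and expression factors were also lower than complex II (-0.10). These differences were not tested.

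Many of these small genes have processed copies in the genome. The name table held 121 pseudogenes named after 30 of the 65 genes, among them 17 of COX6C, 8 of ATP5MG and 7 of COX6A1. How reads that match both a gene and its copies were treated is not given in the sources used here, so the ratios of these genes are uncertain to that extent.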

How the data were processed

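Per the labels' protocols, nuclei were isolated from the transfected HEK293T cells and libraries were made from nuclear RNA with the QuantSeq kit of the REV type. Tools listed in the submitters' processing notes, without their roles, are STAR 2.7.10a, DESeq2 1.30.1, HTSeq 2.0.1, bcl2fastq 2.20 and cutadapt 3.7, and the build is hg38. The authors deposited 2 tables, for short and for long genes, with log2 ratios of WT over Pcif1-KO in 8 columns (m6Am or non-m6Am genes, with siScram or siPCF11). The sources used here do not give the scaling, any shrinkage, the choice of listed genes or the assignment of m6Am. The tables hold no counts, so the depth is unknown and no filter or interval on counts was possible.

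Groups came from the sample titles. Symbols were found for 8792 of 8801 IDs, and spans in RefSeq (GRCh38) for 8725. limma 3.58.1 (R 4.3.3) was fitted to the 2 ratios per gene over 7591 genes. It found 1 common spread for all genes, treats a true difference between the siRNAs as error, and its p-values do not cover other clones. On simulated data made on these 7591 genes the script was checked for sign and calls. Window centring took the median of at least 15 other genes within 10 Mb, or else of the chromosome. Python 3.11.15 with pandas 2.3.3 was used for the rest. Alternatives were centring on all genes, the chromosome or the window, subunits alone, genes with both ratios, lines at 0.3 and 1, an unmoderated test and each siRNA alone. A first base at any annotated start was added after seeing the data. The genes and lists were chosen with earlier results of these data known. Named with both ratios were the lowest and highest genes of each complex, those at or beyond 0.5 with both siRNAs, those called by limma, those whose ratios differ by 0.5 or more, and paralogous subunits, and the rest complete each complex.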

Additional observations from a re-analysis of the deposited data

Results flagged for a closer look

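Among the 17 genes of complexes II to V with opposite signs with the 2 siRNAs, 5 had both log2 ratios of WT over Pcif1-KO at least 0.2 from 0. In the authors' deposited tables SDHA was at 0.21 with siScram and -0.54 with siPCF11, and UQCC6 at 0.35 and -0.31, both higher in WT with siScram alone. The opposite order was that of UQCC1 at -0.30 and 0.56, ATP5MC2 at -0.41 and 0.22, and UQCR11 at -0.36 and 0.21 in the authors' deposited tables. With 1 library per group these differences between the siRNAs were not tested, and opposite signs were found in 27.4% of these genes against 38.3% of all genes.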

How the results depend on the processing

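With siScram, the 8 genes at or below -0.5 became 26 at or below -0.3 and 1 at or below -1, and the 1 gene at or above 0.5 became 4 at 0.3, 0 at 1 and 0 after window centring. With siPCF11, the 12 became 23 and 1, and 7 among subunits alone, and the 1 at or above became 4 at 0.3, 0 at 1, 0 after window centring and 0 among subunits. The overall median was -0.25 with siScram over subunits alone and -0.15 with siPCF11 after chromosome centring. The 5 limma calls became 0 without moderation, as did the 214 lower and 203 higher calls over all genes, and 0 after window centring, which left 91 and 87 over all genes. In the window fit UQCRC1 (-0.72) and ATP5F1D (-0.65) kept their size, and the spread was no longer common to all genes. After chromosome centring 4 were left, and COX7B (mean -0.50, adjusted p 0.141) was not among them. A sign turned for the median of complex II, to 0.048 with siScram over subunits alone and to 0.052 with siPCF11 after chromosome centring. The cause was not tested in any of these, except that subunits alone are fewer genes. The other 40 summary values stayed within their limits under the alternatives run. Leaving out pseudogenes and tissue-specific isoform genes removed no gene. No paired analysis was possible because the groups share fewer than 2 replicate numbers, other than the limma fit itself, in which each ratio is formed within 1 siRNA. Depth limits every ratio and is unknown.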
